A study of Mus musculus with 2 samples.

Results

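Type I interferon-stimulated genes were followed across the cell types of the mouse lung in 37 members: 4 IFIT genes, 5 OAS family genes, 3 transcription factors, 5 nucleic acid sensors and their regulators, 3 genes of ubiquitin-like modification, 8 virus-restricting effectors and 9 other members. They were taken by gene symbol from 55357 listed genes. A gene counted as measured with at least 20 unique molecular identifiers (UMIs, each marking 1 captured RNA molecule) over both libraries. In all, 20373 genes reached this minimum. The 37 members were chosen under the same minimum, so all of them reached it by rule. The mice were female BALB/c animals with orthotopic K7M2 osteosarcoma, a mouse bone tumour line known to spread to the lung. One group received 1V209-Cho-Lip and the other PBS (phosphate-buffered saline). 1V209 is known as a small-molecule agonist of the endosomal RNA receptor TLR7. Dose, time, animal age and the tumour burden of the lungs were not given in the sources used here. Each group was 1 single-cell RNA sequencing library (10x Genomics) from the pooled lungs of 3 mice, so treatment and library cannot be told apart and no difference has a replicate check or a test.

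Type I interferons bind the receptor pair IFNAR1 and IFNAR2, and the kinases JAK1 and TYK2 then activate transcription factors, STAT2 among them. With IRF9, STAT2 acts in a complex that binds the interferon-stimulated response element, a short promoter sequence with a repeated GAAA. Its target genes encode proteins that detect foreign nucleic acid, degrade or block viral RNA, tag proteins with ISG15, or feed back on the signal, as the ISG15 protease USP18 and the SOCS1 protein do. In the lung, monocytes, macrophages, neutrophils and endothelium are all known to carry such transcripts at a basal level.

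The repeat was looked for as GAAA, any 2 bases and GAAA again, on both strands, with overlapping matches counted, in RefSeq windows of 250 bases before to 50 bases after each gene's start (GRCm38.p6, the genome of the files). A window was found for 29 members, and 14 of them (48.3%) held the motif, against 1079 of 27025 genes (3.99%). With 3 bases allowed between the copies as well, 19 of the 29 members (65.5%) and 6.90% of all genes had a match. A match describes letters in a window and shows no binding. The 250 bases before the start are given for 5 members on which the results turn, 5′ to 3′ on the gene's own strand, with the matches in capitals. Isg15 had 3 overlapping matches in 1 run, Oas1a had a pair close to its start, and Rsad2 had a single match on the opposite strand. Ifit3 and Ifit3b are shown because they share an unbroken run of 169 bases here. They are near-identical neighbours on chromosome 19, so the counting of reads that fit both genes is uncertain and was not checked.
Isg15, chr4:156200819-156201068, minus strand: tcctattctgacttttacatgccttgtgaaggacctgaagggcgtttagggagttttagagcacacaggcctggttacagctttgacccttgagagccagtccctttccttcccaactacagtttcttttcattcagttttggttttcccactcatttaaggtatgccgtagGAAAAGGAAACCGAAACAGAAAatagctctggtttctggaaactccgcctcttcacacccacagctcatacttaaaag
Rsad2, chr12:26456453-26456702, minus strand: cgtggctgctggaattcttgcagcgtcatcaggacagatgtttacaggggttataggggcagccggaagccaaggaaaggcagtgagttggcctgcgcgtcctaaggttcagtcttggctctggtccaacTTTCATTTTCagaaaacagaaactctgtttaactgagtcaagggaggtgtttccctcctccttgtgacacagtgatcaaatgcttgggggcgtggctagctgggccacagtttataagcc
Oas1a, chr5:120907526-120907775, minus strand: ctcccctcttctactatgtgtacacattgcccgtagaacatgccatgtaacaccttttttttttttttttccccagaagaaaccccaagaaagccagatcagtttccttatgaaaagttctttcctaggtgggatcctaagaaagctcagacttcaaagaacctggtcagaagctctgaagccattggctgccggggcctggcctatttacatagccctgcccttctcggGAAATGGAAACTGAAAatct
Ifit3, chr19:34583279-34583528, plus strand: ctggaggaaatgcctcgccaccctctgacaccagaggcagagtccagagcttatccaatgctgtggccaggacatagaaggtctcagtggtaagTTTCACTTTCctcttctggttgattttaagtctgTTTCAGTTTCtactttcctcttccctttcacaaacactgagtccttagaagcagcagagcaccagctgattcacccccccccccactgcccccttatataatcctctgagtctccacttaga
Ifit3b, chr19:34607707-34607956, plus strand: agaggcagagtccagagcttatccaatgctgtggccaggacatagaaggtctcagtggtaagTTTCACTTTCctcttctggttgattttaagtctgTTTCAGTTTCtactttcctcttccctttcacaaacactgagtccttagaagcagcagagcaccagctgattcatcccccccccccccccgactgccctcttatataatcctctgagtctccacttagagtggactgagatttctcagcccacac

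The treated library kept 12228 cells with 45870859 UMIs (median 2503 per cell) and the PBS library 12549 cells with 45648477 UMIs (median 2193 per cell). Levels are UMIs per 1000000 UMIs of a library or cell class (CPM), with exact 95% Poisson intervals, and ratios are treated over PBS with exact conditional 95% intervals; both cover counting error only. Marker genes gave 24 cell classes that held 50 or more cells per library, each called by its markers as "-like". Neutrophil-like cells made up 34.9% of the treated and 12.2% of the PBS cells (4265 and 1531). Transcripts typical of neutrophils were also higher outside them. In sum, 13 neutrophil transcripts such as S100a8 were higher in the treated library in 22 of the 24 classes, neutrophil-like cells among them. The summed level of 14 genes known to respond to tissue dissociation was higher in 23 of the 24. Whether the neutrophil transcripts in other classes came from neutrophils or from the cells' own expression was not tested. The libraries shared 268 deposited cell barcodes. Within a class, highest and lowest ratios are named among members with at least 50 UMIs. The part of these differences in the member values was tested only where an alternative is named.

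In the PBS library, among the 24 compared classes, the summed member level ran from 472 CPM in club or secretory-like cells to 10048 CPM in neutrophil-like cells, followed by classical monocyte-like cells (8976 CPM), regulatory T-like cells (5602 CPM), mesothelial-like cells (5570 CPM) and interstitial macrophage-like cells (5097 CPM). Neutrophil-like cells had the highest level of 12 members and classical monocyte-like cells of another 12. The remaining 13 peaked in structural cells or in interstitial macrophage-like cells. These orders cover the 24 classes only. The pDC-like cells, too few to be compared (28 treated and 73 PBS cells), had 7162 CPM (6869 to 7464) in sum with PBS, and Bst2, Herc6, Isg20, Mx1, Rsad2 and Usp18 each had a higher level in at least 1 of the small classes than in any of the 24. The leading genes of the pDC-like cluster included the heart muscle genes Myl7, Tnni3 and Tnnt2 beside Siglech. Its values may therefore not be those of plasmacytoid dendritic cells alone.

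Neutrophil-like cells stood out for Isg15, which encodes a ubiquitin-like protein, at 3042 CPM (2971 to 3114); the next class, classical monocyte-like cells, had 596 CPM (562 to 631). Rtp4, which encodes a receptor-transport protein, stood at 755 CPM there against 178 CPM in classical monocyte-like cells. Rsad2, the gene of the antiviral enzyme viperin, had 445 CPM against 114 CPM. In each of these 3 genes the intervals of the first and second class did not overlap. The OAS family, whose active enzymes make an activator of RNase L, followed the same order for Oasl1 (286 and 102 CPM), Oas3 (190 and 110 CPM) and Oas2 (91.6 and 63.9 CPM), but Oas1a was highest in classical monocyte-like cells (136 CPM) and Oasl2 in mesothelial-like cells (108 CPM). Classical monocyte-like cells led for Ifi27l2a at 3323 CPM (3242 to 3406), ahead of regulatory T-like cells at 2914 CPM (2821 to 3009). They also led for Irf7, the transcription factor that amplifies interferon production, at 482 CPM (452 to 515), and for Ifi44 at 203 CPM (184 to 225). For Trim30a, classical monocyte-like and neutrophil-like cells were at 262 CPM (240 to 286) and 254 CPM (234 to 276), and for Sp100, classical monocyte-like and CD8 T-like cells were at 441 CPM (412 to 472) and 437 CPM (407 to 469); these neighbours did not differ beyond their counting intervals.

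Structural cells carried a different subset. Among the 24 classes Bst2, the gene of tetherin, was highest in mesothelial-like cells at 1462 CPM (1346 to 1585; pDC-like cells, outside them, had 4324 CPM, 4097 to 4560), above venous endothelial-like cells at 599 CPM (472 to 748), and stood at 44.7 CPM in neutrophil-like cells. Slfn5 reached 622 CPM (493 to 774) in venous endothelial-like cells, within counting error of classical monocyte-like cells at 562 CPM (529 to 597), and Phf11d reached 90.8 CPM in Car4 capillary endothelial-like cells. Ifit3 and Ifit3b, of the family that binds foreign RNA ends, were highest in AT1-like cells of the alveolar epithelium, at 171 CPM (128 to 225) and 144 CPM (105 to 195). Stat2 peaked in general capillary endothelial-like cells at 106 CPM (95.7 to 118), where mesothelial-like cells at 97.6 CPM (69.4 to 133) overlapped. Alveolar macrophage-like cells, with 683 CPM in all, were the lowest class for Isg15 (18.4 CPM), Rtp4 (6.02 CPM), Isg20 (5.29 CPM), Ifit3 (1.10 CPM) and Ifit3b (0.365 CPM).

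**Figure D1:**
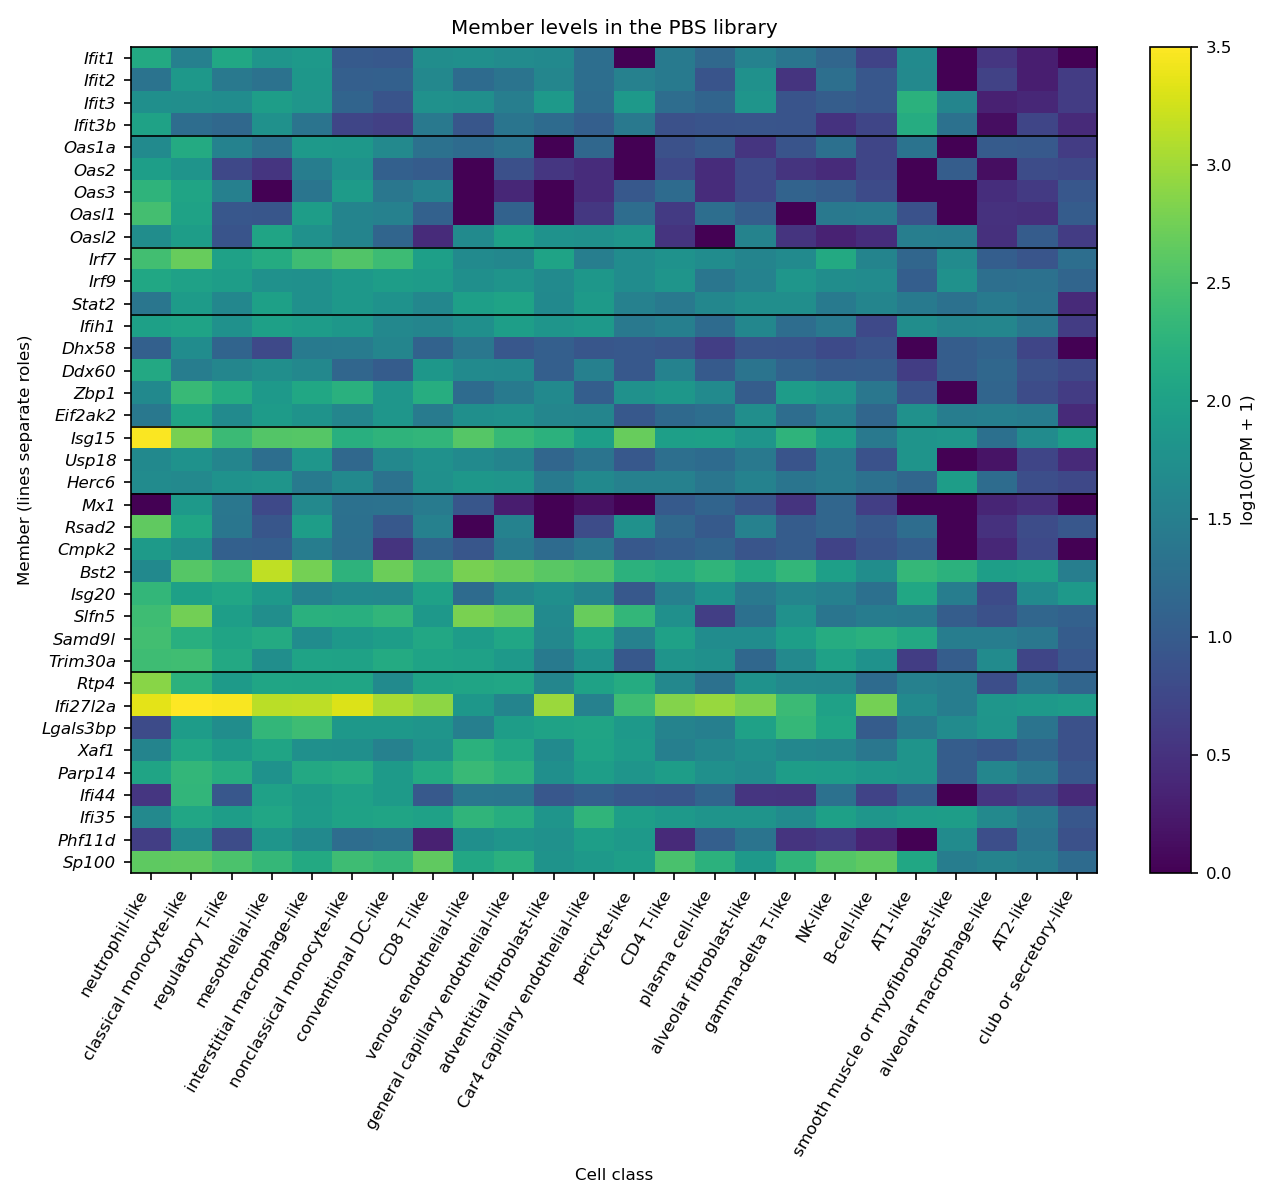
Levels of the 37 members (rows, grouped by role) in the PBS library by cell class (columns, ordered by summed member level), as log10(CPM + 1). Isg15 in neutrophil-like cells (3042 CPM) and Ifi27l2a in classical monocyte-like cells (3323 CPM) are the brightest fields, and alveolar macrophage-like cells are dark for most members.

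Over all kept cells, the members were 1.36-fold higher in the treated library in sum (4167 against 3062 CPM; interval 1.35 to 1.37). At the level of single genes, 13 of 37 (35.1%) were at least 1.5-fold higher and 3 (8.11%) at least 1.5-fold lower; of all 20373 measured genes, 13.8% were that much higher and 19.7% that much lower. The median log2 ratio was 0.30 over the members and -0.19 over all measured genes. The counting interval lay above 1 for 21 members, below 1 for 11 and held 1 for 5. In such sums a change in the number of cells of a type and a change in RNA per cell cannot be told apart.

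The OAS family was the one role in which every member passed 1.5-fold: Oas2 had 34.0 CPM (treated) and 13.5 CPM (PBS), a ratio of 2.53 (2.30 to 2.78). Oasl1 had 79.6 and 32.7 CPM (2.44, 2.29 to 2.59), and Oas3 59.2 and 24.8 CPM (2.38, 2.22 to 2.56). Oas1a (1.53) and Oasl2 (1.52) lay just past the threshold. Among the IFIT genes the values split: Ifit1 had 61.2 against 30.4 CPM (2.01, 1.89 to 2.15), whereas Ifit2 had 14.5 against 20.4 CPM (0.709, 0.641 to 0.785). Ifit3b was at 29.7 against 15 CPM (1.98) and its near copy Ifit3 at 23.1 against 24.0 CPM (0.962).

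Isg15 had 741 CPM with treatment and 320 CPM in the PBS library, a ratio of 2.32 (2.27 to 2.36). Its protease gene Usp18 (26.4 against 24.8 CPM; 1.07, 0.984 to 1.16) and the ligase gene Herc6 (29.2 against 32.3 CPM; 0.904) did not follow. Among the effectors, Rsad2 had 95.5 against 43.3 CPM (2.21, 2.09 to 2.33), Isg20, an RNA exonuclease gene, 88.9 against 51.9 CPM (1.71), and Trim30a 120 against 79.7 CPM, at the threshold. Mx1, which encodes a dynamin-like GTPase, had the lowest ratio of all members at 4.67 against 10.6 CPM (0.438, 0.371 to 0.516), and Bst2 had 190 against 323 CPM (0.588, 0.573 to 0.604). Phf11d was the third member past the lower threshold (17.6 against 26.5 CPM; 0.663). Rtp4 had the highest ratio of the 37, with 258 against 96.9 CPM (2.66, 2.57 to 2.76), and Ifi27l2a the highest level, with 966 against 696 CPM (1.39). The transcription factors stayed under 1.5-fold: Irf7 at 1.45, Irf9 at 1.33 and Stat2 at 0.982. Of the sensors, Ddx60 was at 1.65, while Ifih1, the gene of the RNA sensor MDA5, was at 1.12 and Zbp1 at 0.963.

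**Figure D2:**
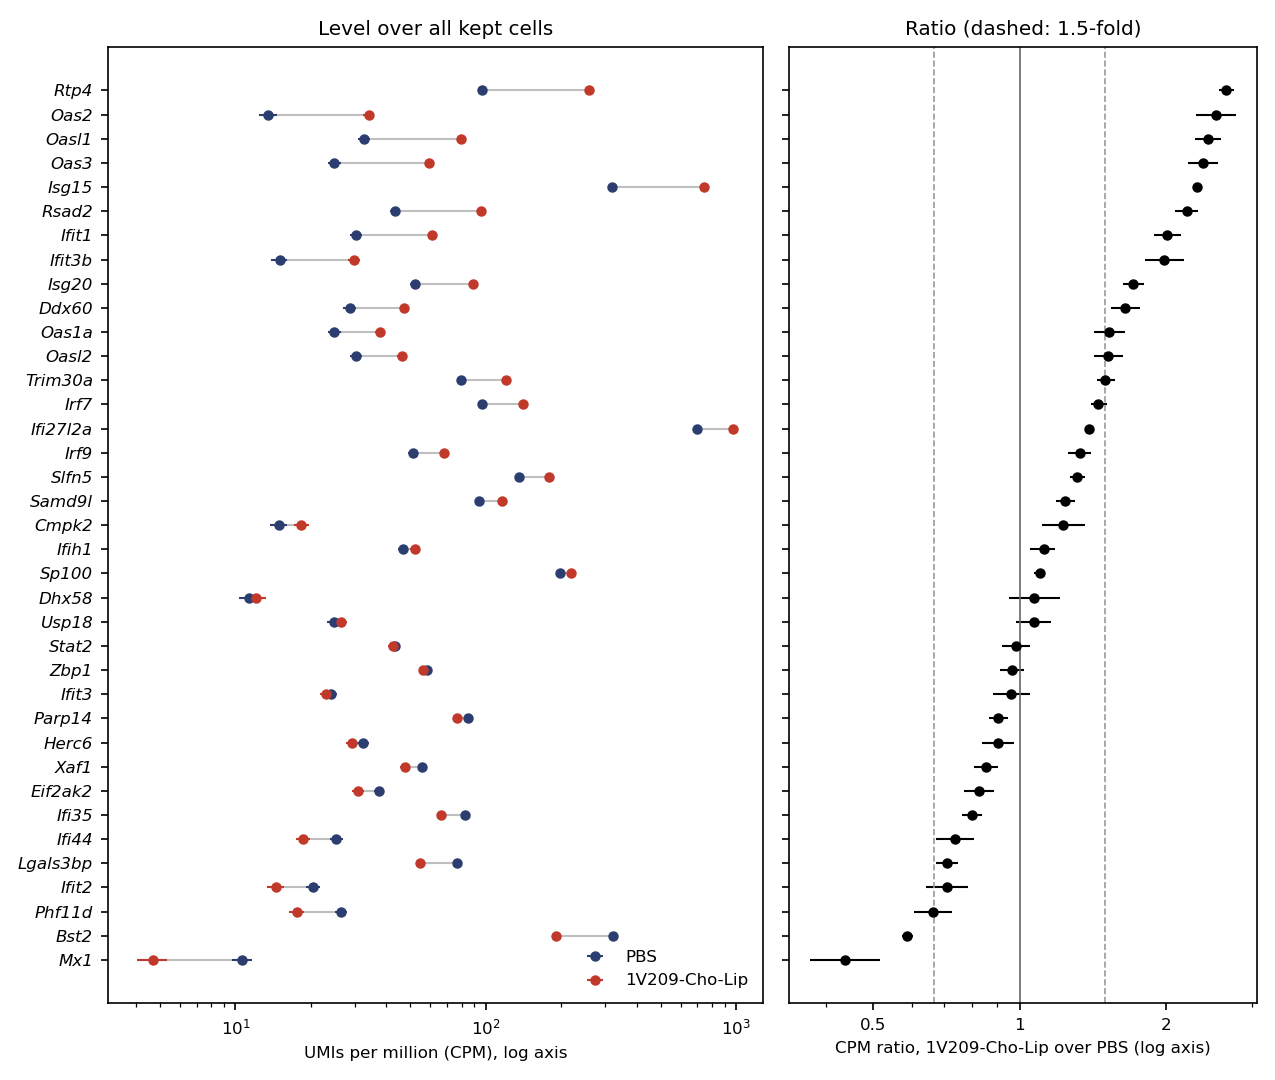
Left, level of each member over all kept cells in both libraries (CPM, log axis, exact 95% Poisson bars); right, treated over PBS ratio with its 95% counting interval (log axis). Members are ordered by ratio, from Rtp4 at 2.66 to Mx1 at 0.438; dashed lines mark 1.5-fold.

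These sums moved with the share of neutrophil-like cells, which held 51.2% of the treated and 16.6% of the PBS member UMIs. For Isg15 they held 77.5% and 48.0% of the UMIs, and for Rtp4 74.3% and 39.3%. Without neutrophil-like cells, 1 member was at least 1.5-fold higher and 1 at least 1.5-fold lower, and the median log2 ratio was -0.032. Another setting gave each of the 24 classes the same weight in both libraries. It also left out all cells outside these classes, among them the Def8-led cluster described below. With it, 0 members were at least 1.5-fold higher and 7 at least 1.5-fold lower, with a median of -0.23. Isg15, Rsad2, Oas3, Oasl1 and Ifit3b then lay below 1. A further cluster, led by the gene Def8, had very high UMI counts per cell (median 68999 and 51558). Its markers gave it the label of putative K7M2 tumour cells, an identity that was not tested. The 42 treated and 141 PBS cells of this cluster held 3.36% and 9.87% of the member UMIs, and without it the median over all cells was 0.13.

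Within neutrophil-like cells the members differed little between the libraries. Their summed level was 8926 CPM with treatment and 10048 CPM in the PBS library (0.888, 0.876 to 0.901), the highest of any class in both. Isg15 had 2400 against 3042 CPM (0.789, 0.768 to 0.810), Ifi27l2a 1985 against 2261 CPM (0.878) and Rtp4 801 against 755 CPM (1.06). Of 36 measured members 2 were at least 1.5-fold higher, Zbp1 (82.0 against 45.1 CPM; 1.82) and Oas1a (73.8 against 46.0 CPM; 1.60), where 10.2% of all genes measured in the class were. Members at least 1.5-fold lower numbered 3, where 24.1% of all genes were; Bst2 and Cmpk2 were both at 0.610. The median was -0.14, beside -0.20 over all genes of the class.

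The neutrophil-like class was made of different clusters in the libraries. Clusters 0, 4 and 13 together with cluster 11 held most treated cells, and clusters 9 and 10 most PBS cells. Cluster 9, with 489 treated and 459 PBS cells, had a summed member level of 10525 and 10503 CPM (1.00, 0.973 to 1.03), and Isg15 at 3300 and 3339 CPM. Cluster 10, with 521 and 786 cells, had 11145 and 10970 CPM (1.02, 0.989 to 1.04). Cluster 13, led by the cystatin genes Stfa2 and Cstdc5, was mostly treated (1123 and 53 cells) and had 8198 and 7437 CPM (1.10, 1.03 to 1.18). In cluster 14, led by the granule genes Camp and Ltf of immature neutrophils, the level was 2310 and 1661 CPM. Cluster 40.2, with the members Rsad2 and Cmpk2 among its leading genes, had 28 treated and 0 PBS cells. Its treated level was 10447 CPM, and it has no ratio. The class as a whole was thus lower in the treated library while, of its 8 clusters with cells in both libraries, the interval lay above 1 in 4 (clusters 4, 11, 13 and 14), held 1 in 3 (0, 9 and 10) and lay below 1 in 1 (18.1); with equal cluster shares the median was 0.10.

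In classical monocyte-like cells (1 cluster; 399 and 327 cells), 0 of 37 members were at least 1.5-fold higher and 16 at least 1.5-fold lower, beside 11.8% and 8.21% of all genes of the class; the median was -0.55. Isg15 had 386 against 596 CPM (0.648, 0.597 to 0.704), Irf7 412 against 482 CPM (0.855), Slfn5 426 against 562 CPM (0.758) and Ifi27l2a 2722 against 3323 CPM (0.819). The lowest ratios were those of Ifit2 (24.9 against 72.3 CPM; 0.345, 0.258 to 0.458), Cmpk2, a mitochondrial nucleotide kinase gene next to Rsad2 (20.1 against 54.5 CPM; 0.369) and Ifit3b (0.381). At the other end were Lgals3bp (107 against 85.4 CPM; 1.25, 1.04 to 1.52), Rtp4 (0.984) and Dhx58 (0.963). The 13 neutrophil transcripts were at 4285 against 502 CPM in these cells.

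Nonclassical monocyte-like cells (117 and 343 cells) were nearly level: 4845 against 4925 CPM in sum (0.984, 0.939 to 1.03), and a median of 0.02. There, 1 of 33 members was at least 1.5-fold higher and 3 at least 1.5-fold lower, beside 11.9% and 10.3% of all genes. Irf7 had 435 against 354 CPM (1.23, 1.04 to 1.45) and Isg15 95.5 against 159 CPM (0.602, 0.433 to 0.824). Neutrophil transcripts were at 654 against 800 CPM.

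Interstitial macrophage-like cells (1 cluster, led by C1qa and C1qc; 189 and 243 cells) had 3526 against 5097 CPM in sum (0.692, 0.667 to 0.717). Of 37 members 0 were at least 1.5-fold higher and 19 at least 1.5-fold lower, beside 14.5% and 12.5% of all genes, and the median was -0.67. The IFIT genes and Mx1 were furthest apart. Ifit3 had 2.62 against 67.8 CPM (4 and 93 UMIs; 0.0386, 0.0103 to 0.102), Ifit2 7.2 against 70.0 CPM (0.103, 0.0497 to 0.193) and Mx1 7.86 against 43.0 CPM (0.183, 0.0894 to 0.344). Bst2 had 284 against 578 CPM (0.491), Isg15 221 against 375 CPM (0.589) and Ifi27l2a 1299 against 1426 CPM (0.911). Sp100 was equal at 134 CPM in both. Neutrophil transcripts were at 6641 against 1377 CPM.

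Alveolar macrophage-like cells (416 and 832 cells) went the other way. Of 33 members 14 were at least 1.5-fold higher and 1 at least 1.5-fold lower, beside 9.75% and 6.31% of all genes, and the median was 0.30. The summed level was 964 against 683 CPM (1.41, 1.35 to 1.48), both far under those of the other macrophage class. Rsad2 had 32.5 against 2.19 CPM (123 and 12 UMIs; 14.8, 8.19 to 29.5), Ifit1 17.7 against 2.56 CPM (6.92, 3.85 to 13.3) and Isg15 107 against 18.4 CPM (5.83, 4.68 to 7.32). Members chosen after their values were seen were Rtp4 (34.6 against 6.02 CPM; 5.74) and Ifit3b (9.24 against 0.365 CPM, on 35 and 2 UMIs; 25.3, 6.50 to 217). The 1 lower member, named for the same reason, was Ifit2 (2.38 against 3.83 CPM, on 9 and 21 UMIs; 0.62, 0.25 to 1.41), whose interval held 1. Ifi27l2a, the member with most UMIs in the class, had 121 against 68.6 CPM (1.76). Eif2ak2, the gene of the RNA-dependent kinase PKR, was lowest (22.2 against 31.9 CPM; 0.694, 0.529 to 0.905), followed by Irf9 (0.745) and Herc6 (0.747), and Bst2 was at 0.844.

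Neutrophil transcripts in alveolar macrophage-like cells were at 3342 against 326 CPM, the amount that 2.08% and 0.293% of RNA of the neutrophil-like profile would give. RNA of that profile in that amount would carry 16.7 of the 34.6 CPM of Rtp4 and 6.21 of the 32.5 CPM of Rsad2 in the treated library. After subtracting it, Isg15 had 57.4 against 9.51 CPM, Rsad2 26.3 against 0.885 CPM and Ifit1 14.1 against 2.17 CPM. Cells without any UMI of these transcripts numbered 11 and 333, and in them the summed member level was 688 and 671 CPM (1.03, 0.719 to 1.42). Isg15 had 4 and 22 UMIs in those cells (5.85, 1.47 to 17.2), and Rsad2 had 0 and 3. The clusters differed too: in cluster 17, led by Fabp1 and Ear1 (303 and 707 cells), the summed ratio was 1.23 (1.17 to 1.30), in cluster 16 (66 and 73 cells) 2.38 (2.08 to 2.73), and in cluster 24.1, led by Mmp12 and Hmox1 (47 and 52 cells), 0.422 (0.280 to 0.634).

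T cells had lower levels of most members in the treated library. CD8 T-like cells (175 and 511 cells) had 1643 against 3550 CPM in sum (0.463, 0.436 to 0.491), the lowest ratio of the 24 classes. Of 34 members 0 were at least 1.5-fold higher and 30 at least 1.5-fold lower, beside 13.6% and 7.72% of all genes, and the median was -1.29. Ifi27l2a had 345 against 814 CPM (0.425, 0.373 to 0.482), Bst2 102 against 268 CPM (0.382), Isg15 65.0 against 200 CPM (0.324, 0.239 to 0.433) and Sp100, a nuclear body protein gene, 306 against 437 CPM (0.699). The lowest were Ifit3 (6.02 against 58.8 CPM, 5 and 105 UMIs; 0.102), Rsad2 (4.81 against 33.0 CPM; 0.146) and Isg20 (20.5 against 100 CPM; 0.204). Stat2 was the one named member that was level, at 42.1 against 40.9 CPM (1.03, 0.669 to 1.56).

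The clusters behind the CD8 T-like class differed between the libraries. Most treated cells were in cluster 21.2, led by Cd8b1, Dapl1 and Lef1 (114 and 247 cells), where the summed level was 1594 against 1979 CPM (0.805, 0.738 to 0.878). Clusters 35.0, 35.1, 35.2 and 35.5, with Gzmk among their leading genes, held more of the PBS cells and had 5083 to 5822 CPM there. In cluster 35.1 (16 and 58 cells) the level was 2679 against 5083 CPM (0.527, 0.448 to 0.618). The summed level was thus lower in each of these clusters, by least in cluster 21.2. In CD8 T-like cells without any neutrophil transcript (24 and 391 cells) it was 2564 against 3498 CPM (0.733, 0.642 to 0.833).

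Regulatory T-like cells (129 and 295 cells) had 3495 against 5602 CPM (0.624, 0.598 to 0.651), and 0 of 32 members at least 1.5-fold higher and 21 at least 1.5-fold lower, beside 18.1% and 8.33% of all genes (median -0.81). Ifi27l2a had 2013 against 2914 CPM (0.691), Isg15 93.9 against 241 CPM (0.390, 0.301 to 0.5), Bst2 120 against 249 CPM (0.482) and Ifit1 15.3 against 119 CPM (0.128, 0.0666 to 0.226). Ifit3 had 3 UMIs against 63 (0.0717, 0.0144 to 0.219), and Stat2 was at 0.995. Both main clusters were lower, cluster 7.1 at 0.634 and cluster 7.2 at 0.611. In CD4 T-like cells (702 and 1444 cells) the difference was smaller, at 1859 against 2291 CPM (0.811, 0.782 to 0.842), with 1 of 35 members at least 1.5-fold higher and 12 at least 1.5-fold lower, beside 12.6% and 5.53% of all genes (median -0.40). Ifit3 (3.62 against 16.6 CPM; 0.218), Eif2ak2 (4.52 against 14.7 CPM; 0.306) and Rsad2 (6.33 against 14.2 CPM; 0.445) were lowest there, and Rtp4 (1.09), Stat2 (1.01) and Irf7 (0.942) highest. Mx1, chosen after its values were seen, had 0 UMIs against 33, an interval of 0 to 0.203. Cluster 21.1 of these cells, led by Lef1 and Tcf7, was at 0.946 (0.886 to 1.01), cluster 21.3 at 1.08 (1.00 to 1.15) and cluster 7.3, led by Ccr4 and Icos, at 0.556 (0.494 to 0.625). Neutrophil transcripts were higher in the treated library in all 3 T-cell classes, at 533 against 95.2 CPM in CD8 T-like, 2268 against 113 CPM in regulatory T-like and 1803 against 136 CPM in CD4 T-like cells.

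**Figure D3:**
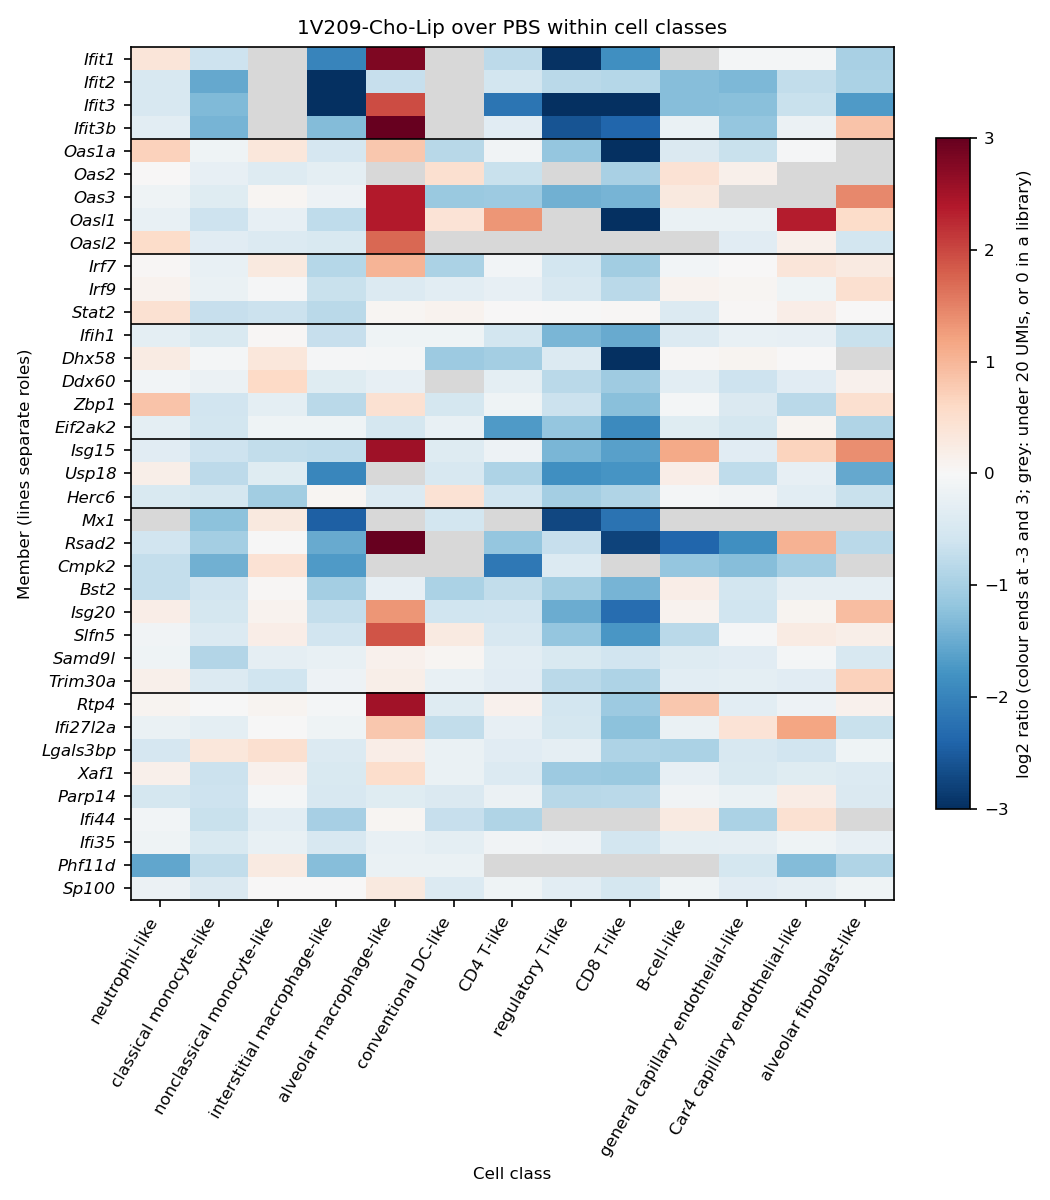
log2 ratio of treated over PBS for each member (rows, grouped by role) in 13 cell classes (columns); red is higher and blue lower in the treated library, and grey marks under 20 UMIs or 0 UMIs in a library. The alveolar macrophage-like column is red for Ifit1, Ifit3, Ifit3b, Oas3, Oasl1, Isg15, Rsad2 and Rtp4 and blue for Ifit2, and the CD8 T-like and regulatory T-like columns are blue for most members.

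B-cell-like cells (666 and 1433 cells) had 1650 against 1836 CPM (0.899, 0.860 to 0.939), with 2 of 33 members at least 1.5-fold higher and 6 at least 1.5-fold lower, beside 12.6% and 6.12% of all genes (median -0.19). The 2 were Isg15 (55.0 against 25.0 CPM; 2.20, 1.63 to 2.99) and Rtp4 (27.5 against 15.6 CPM; 1.76), and neutrophil transcripts were at 2216 against 354 CPM. In cells without any of those transcripts (82 and 1076 cells) the log2 ratio of Isg15 was -0.18. Conventional DC-like cells (74 and 105 cells) had 2721 against 3793 CPM (0.717, 0.678 to 0.759), with 0 of 29 members higher and 8 lower by 1.5-fold, beside 13.1% and 13.1% of all genes (median -0.37). Bst2 had 270 against 518 CPM (0.520), Irf7 129 against 249 CPM (0.521, 0.404 to 0.666) and Ifi27l2a 661 against 1102 CPM (0.599), while Slfn5 was at 1.21. Cluster 2.0, led by Xcr1 and Clec9a, was at 0.946 in sum (0.864 to 1.04) and cluster 2.2, led by Cd209a, at 0.621 (0.563 to 0.685).

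The capillary endothelium was measured in a general and a Car4 class. In general capillary endothelial-like cells (1493 and 1573 cells) the sum was 2625 against 3251 CPM (0.807, 0.785 to 0.831), with 0 of 35 members at least 1.5-fold higher and 10 at least 1.5-fold lower, beside 12.6% and 9.43% of all genes (median -0.33). Rsad2 had 9.71 against 34.5 CPM (0.282, 0.183 to 0.421), Ifit2 8.45 against 21.5 CPM (0.393), Bst2 337 against 494 CPM (0.681) and Slfn5 481 against 492 CPM (0.978, 0.912 to 1.05). By cluster, the summed ratio was 0.976 in cluster 1, 0.676 in cluster 3 (led by Esm1 and Lyve1) and 0.774 in cluster 6 (led by Gja4 and Glp1r). Car4 capillary endothelial-like cells (613 and 733 cells) were level in sum at 2479 against 2505 CPM (0.990, 0.952 to 1.03), with 4 of 34 members at least 1.5-fold higher and 5 at least 1.5-fold lower, beside 13.4% and 8.91% of all genes (median -0.13). Ifi27l2a had 75.1 against 33.1 CPM (2.27, 1.70 to 3.04) and Isg15 148 against 93.1 CPM (1.59, 1.33 to 1.91), and Phf11d had 37 against 90.8 CPM (0.408, 0.307 to 0.536). Neutrophil transcripts were at 2635 against 156 CPM there, and Isg15 had a log2 ratio of -0.09 in the cells without them. Cluster 23, with most of the cells, was at 0.957 in sum (0.914 to 1.00) and cluster 38 at 1.56 (1.37 to 1.77).

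Alveolar fibroblast-like cells (513 and 254 cells) were divided: 5 of 31 members were at least 1.5-fold higher and 10 at least 1.5-fold lower, beside 15.2% and 14.1% of all genes (median -0.26). Isg15 had 173 against 65.7 CPM (2.63, 1.96 to 3.59) and Isg20 47.1 against 24.8 CPM (1.90), and Ifit3 had 20.3 against 65.7 CPM (0.309, 0.198 to 0.478) and Ifi27l2a 410 against 649 CPM (0.632). Neutrophil transcripts stood at 6751 against 998 CPM. In cells without those transcripts (60 and 181 cells) the summed level was 1286 against 1518 CPM (0.847, 0.729 to 0.980).

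Over the 24 classes, the interval of the summed ratio lay below 1 in 16, above 1 in 3 and held 1 in 5. Of the classes not yet described, mesothelial-like cells had 5143 against 5570 CPM (0.923, 0.875 to 0.974) and a median of -0.54, with Bst2, their most abundant member, at 2025 against 1462 CPM (1.39, 1.26 to 1.53). Venous endothelial-like cells had 2997 against 3521 CPM (0.851, 0.756 to 0.959), and adventitial fibroblast-like cells 2486 against 2792 CPM (0.890, 0.823 to 0.963). NK-like cells had 1742 against 1869 CPM (0.932, 0.866 to 1.00) and gamma-delta T-like cells 1619 against 1923 CPM (0.842, 0.747 to 0.947). AT1-like cells of the alveolar wall were level at 1774 against 1740 CPM (1.02, 0.922 to 1.13). Plasma cell-like cells, in which neutrophil transcripts were lower in the treated library (835 against 9848 CPM), had 1784 against 2132 CPM (0.837, 0.767 to 0.912). This class was mixed, as its cluster 24.2 (17 and 47 cells) had the mast cell genes Mcpt2, Tpsab1 and Mcpt4 among its leading genes, beside antibody genes.

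The members differed in how widely they were lower, although those with higher levels were measured in more classes. Ifit3 was at least 1.5-fold lower in 11 of the 16 classes in which it was measured and at least 1.5-fold higher in 1, alveolar macrophage-like cells. Cmpk2 was lower by that much in 8 of 10 classes, Mx1 in 6 of 8, Ifit2 in 10 of 14 and Bst2 in 11 of 24, each with 0 classes higher. Rtp4 was at least 1.5-fold higher in 7 of 24 classes and lower in 2, and Isg15 higher in 9 of 24 and lower in 6. Both genes had their highest PBS level in neutrophil-like cells, and neutrophil transcripts were higher with treatment in 22 of the 24 classes. The part of neutrophil RNA in these counts of classes was not tested. In cells without neutrophil transcripts the log2 ratio of Isg15 was -0.18 in B-cell-like (82 and 1076 cells) and -0.09 in Car4 capillary endothelial-like cells (93 and 553 cells). In such alveolar macrophage-like cells (11 and 333 cells) its ratio was 5.85 (1.47 to 17.2), on 4 and 22 UMIs. Its values in such cells of the other classes are not given here. Sp100 was at least 1.5-fold lower in 1 of 22 classes and higher in 0, and Ifi35 lower in 1 of 22 and higher in 0.

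**Figure D4:**
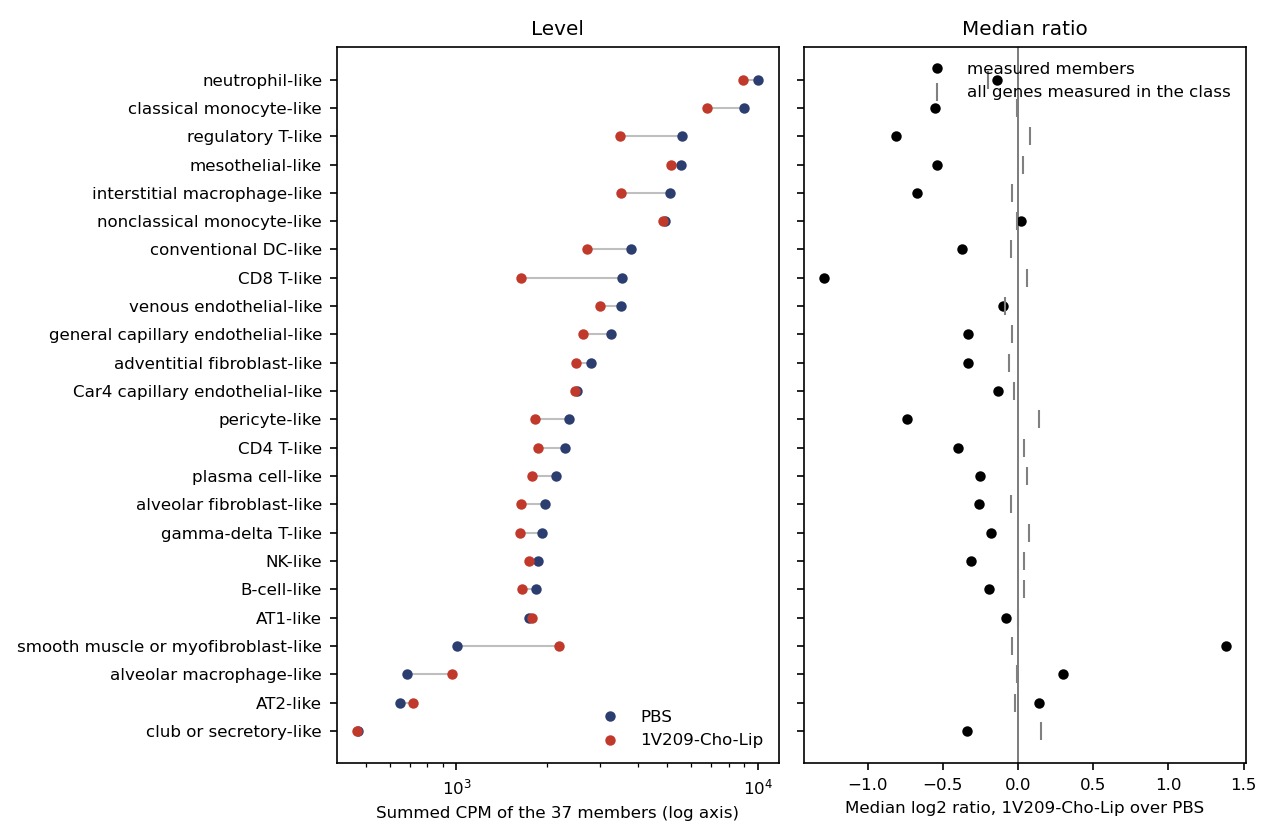
Left, summed CPM of the 37 members in each class in both libraries (log axis); right, median log2 ratio of the measured members (dots) and of all genes measured in the class (ticks). Classes are ordered by PBS level; 20 of 24 member medians lie below 0, and the smooth muscle or myofibroblast-like median (1.38) rests on 6 measured members.

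Member UMIs per cell were compared after each cell was thinned to 1000 UMIs, leaving out 949 treated and 1334 PBS cells that were shallower. Over all kept cells, 36.6% of treated and 23.7% of PBS cells had at least 5 member UMIs (64.1% and 50.6% before thinning). Intervals of the shares by class are exact 95% binomial intervals that take the cells as independent. With 1 library per group they cover no spread between mice or libraries. Among neutrophil-like cells the shares were 69.8% (68.4 to 71.2) and 70.8% (68.2 to 73.2). Among classical monocyte-like cells they were 67.5% (62.7 to 72.1) and 80.5% (75.7 to 84.7), among regulatory T-like cells 25.0% and 42.3%, and among CD8 T-like cells 6.94% (3.64 to 11.8) and 22.8% (19.2 to 26.8). Before thinning these shares were 89.8% and 79.3% in neutrophil-like, 97.7% and 98.5% in classical monocyte-like, 79.8% and 79.0% in regulatory T-like and 60% and 64.4% in CD8 T-like cells. In alveolar macrophage-like cells 2.55% (1.23 to 4.64) and 0.882% (0.355 to 1.81) reached 5 member UMIs (46.4% and 32.5% before thinning), near the 1.34% and 0.763% of AT2-like cells.

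**Figure D5:**
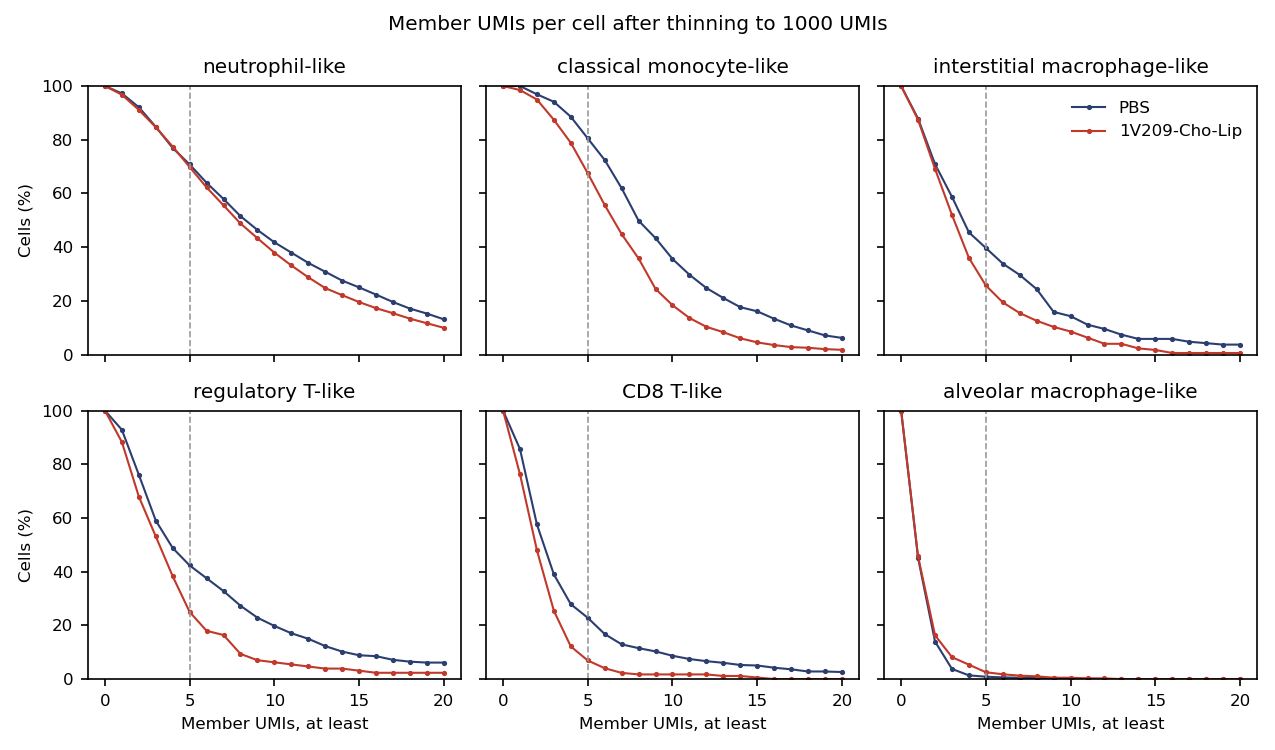
Share of cells (%) with at least a given number of member UMIs after thinning to 1000 UMIs, in 6 classes and both libraries; the dashed line marks 5 UMIs. The neutrophil-like curves nearly coincide, and the PBS curve lies above the treated curve at 5 UMIs in classical monocyte-like, interstitial macrophage-like, regulatory T-like and CD8 T-like cells.

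The other genes of the pathway came from lists of ligands, receptors and JAK-STAT genes, nucleic acid sensing, feedback inhibitors, further interferon-induced genes and genes that lean towards interferon-gamma, all chosen with earlier results of these data known. Of 21 interferon ligand genes, 19 had 0 UMIs in both libraries, which allows up to 0.0654 and 0.0657 CPM (3 counts); these were type I and type III genes, and Ifnk had 2 UMIs in each library. Ifng, the type II ligand of T and NK cells, had 1.68 against 5.04 CPM over all cells (0.333, 0.254 to 0.433), a log2 ratio of -1.58. Inside the classes where it was measured, the log2 ratio was nearer level: -0.76 in CD8 T-like, -0.66 in NK-like, -0.47 in CD4 T-like and -0.10 in regulatory T-like cells. These classes also held smaller shares of the treated cells, NK-like cells for example 1.41% against 5.46%. Of the receptor chains, Ifnar1 had 71.2 against 77.4 CPM (0.920), Ifnar2 143 against 116 CPM (1.23), Ifngr1 304 against 344 CPM (0.884), Ifngr2 98.4 against 65.2 CPM (1.51), Il10rb 34.9 against 22.9 CPM (1.52) and Ifnlr1 2.77 against 1.14 CPM (2.43). The kinase gene Tyk2 had 14.2 against 19.8 CPM (0.717, 0.648 to 0.794). Of the 11 receptor and JAK-STAT genes 3 were at least 1.5-fold higher and 0 lower, where 13.8% of all measured genes were higher and 19.7% lower by that much; the counts of the lists that follow stand beside the same shares.

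Of 24 measured genes of nucleic acid sensing upstream of interferon, 5 were at least 1.5-fold higher and 4 at least 1.5-fold lower over all cells, beside 13.8% and 19.7% of all genes. Tlr13, a receptor for bacterial RNA, had 61.0 against 26.0 CPM (2.34) and the adaptor Myd88 96.4 against 46.5 CPM (2.07). Irf8, a factor of the monocyte and dendritic cell lineages, had 74.2 against 137 CPM (0.544) and Tlr9 2.11 against 3.86 CPM (0.548). Tlr7, the receptor of 1V209, was named after its values were seen, with 15.8 against 19.2 CPM (0.824, 0.745 to 0.910); its PBS level was highest in nonclassical monocyte-like cells, at 126 CPM. Among 9 feedback inhibitors 2 were at least 1.5-fold higher and 0 lower. Socs1, whose protein blocks JAK kinases, had 40.3 against 5.43 CPM (7.41, 6.49 to 8.5) and Socs3 227 against 106 CPM (2.14).

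Socs1 was also higher inside the classes in which it was measured. These were 15 of the 24 classes, and its interval lay above 1 in 15. Its ratios ran from 3.59 in interstitial macrophage-like cells to 39.7 in Car4 capillary endothelial-like cells (70 and 2 UMIs). It had 144 against 12.3 CPM in CD8 T-like and 22.1 against 2.60 CPM in neutrophil-like cells. With 1847 treated and 248 PBS UMIs in all, a class could reach the minimum of 20 UMIs through treated counts alone. The count of 15 therefore partly reflects this minimum, and the classes under it are not covered. Dissociation-response genes were higher in the treated library in most classes, as given above, and their part in these values was not tested. Among 62 further interferon-induced genes measured over all cells, 6 were at least 1.5-fold higher and 17 at least 1.5-fold lower, beside 13.8% and 19.7% of all genes (median -0.24, and -0.19 over all genes): Ly6e had 690 against 1096 CPM (0.630) and Ifitm3 1551 against 1316 CPM (1.18), with Slfn1 (2.26) and Fgl2 (2.20) highest and Ifi213 (0.338) and Slfn9 (0.488) lowest among those with at least 100 UMIs. Of 20 genes that lean towards interferon-gamma, 1 was at least 1.5-fold higher and 2 lower, beside the same shares (median -0.08); the 1 was Socs1 and the 2 were Gbp4 (0.516) and Ciita (0.564).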

How the data were processed

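Lung cells of 2 groups (3 pooled mice each) were measured by 10x single-cell RNA sequencing. Per the file headers the authors made the count matrices with Cell Ranger 9.0.1, and per the submitters' processing notes the genome was mm10; the deposited values are counts of UMIs per gene and barcode. The annotation release is not given in the sources used here; 52081 identifiers, those of the 37 members included, matched GENCODE vM21. The deposited barcodes (13740 treated, 14622 PBS) started at 500 UMIs. Kept cells had at least 500 UMIs, 200 genes, at most 20% mitochondrial UMIs, and no doublet call by Scrublet in scanpy 1.11.5 (10.9% and 13.8% called). Cells of both libraries were clustered jointly, without batch correction, on 2998 variable genes that left out the members and other interferon genes (30 components, 15 neighbours, Leiden resolution 2, 53 clusters; 17 divided further). A cluster took a type with at least 3 markers and 50% of its marker list at a log2 difference of at least 1; a rule that moves a cluster to the related type its leading genes mark was added after the clusters were seen, and moved 1 dendritic cluster. Unnamed clusters held 626 treated and 486 PBS cells, and mixed ones 361 and 299.

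Counts were summed per library and class; ratios in counts of called members use a pseudocount of 0.5. On Poisson counts simulated for 20373 genes, 95.7% of ratio intervals held the true value. The simulation had no spread between cells, mice or libraries, so it checks the calculation of the intervals only. TMM factors came from edgeR 4.0.16. With 1 library per group no test was run. The members, gene lists and settings were chosen with earlier results of these data known. Within a class the text names up to 4 members with most UMIs and the 3 highest and 3 lowest ratios among members with at least 50 UMIs; in the PBS library it draws on the 5 highest members of a class and the highest class of each member. Of other lists it names ligands, receptors, and in each list the 3 genes with most UMIs and the 2 highest and 2 lowest ratios above 100 UMIs, in part. Alternatives changed the scaling, fold, UMI minimums, cell filters, doublet removal, clustering, class definition, class shares and thinning; 4 more were added after the data were seen. One gene of the pathway lists is not reported here.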

Additional observations from a re-analysis of the deposited data

Results flagged for a closer look

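In 3 of 24 classes the summed member level was higher in the treated library beyond counting error, while in 16 it was lower; the difference between classes was not tested. The ratios were 1.41 in alveolar macrophage-like, 1.10 in AT2-like and 2.18 in smooth muscle or myofibroblast-like cells. In AT2-like cells Isg15 had 87.0 against 48.3 CPM and Bst2 55.4 against 101 CPM, with neutrophil transcripts at 5932 against 1296 CPM. In smooth muscle or myofibroblast-like cells (90 and 66 cells; 403 and 104 member UMIs) Ifi27l2a had 419 against 29.0 CPM and Isg15 305 against 67.6 CPM, with neutrophil transcripts at 14183 against 319 CPM. The part of neutrophil RNA in the values of these last 2 classes was not tested.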

How the results depend on the processing

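With 1 library per group, no difference has a replicate check, and no paired analysis was possible because each group has a single library. Over all kept cells, where 13 members were at least 1.5-fold higher and 3 lower with a median of 0.30, equal class shares gave 0, 7 and -0.23, and leaving out neutrophil-like cells gave 1, 1 and -0.032. Equal class shares also left out the cells outside the 24 classes, the Def8-led cluster included. A fold of 2 gave 7 higher and 1 lower, the mean of each cell's CPM gave 5 lower, and TMM scaling gave 1 lower with a median of 0.49. Median-of-ratios scaling gave a median of 0.46 and, as an alternative added after seeing the data, leaving out the Def8-led cluster gave 0.13. Log2 ratios of single members that changed sign with equal class shares were Ifit3b -0.40, Oas2 -0.0040, Oas3 -0.11, Oasl1 -0.20, Ddx60 -0.17, Isg15 -0.31, Rsad2 -0.60 and Trim30a -0.040; without neutrophil-like cells they were Isg20 -0.050 and Trim30a -0.032. The neutrophil-like median of -0.14 became 0.06 with per-cell marker gates, 0.12 with TMM, 0.14 with median-of-ratios scaling and 0.10 with equal cluster shares. The medians of CD8 T-like (-1.39 to -0.81), regulatory T-like (-1.03 to -0.51), interstitial macrophage-like (-0.73 to -0.37), classical monocyte-like (-0.62 to -0.34) and alveolar macrophage-like cells (0.10 to 0.38) kept their sign under every alternative run. For none of these classes was the setting with only cells without neutrophil transcripts run, as each had under 50 such treated cells. In alveolar macrophage-like cells without those transcripts (11 and 333 cells) the summed ratio was 1.03 (0.719 to 1.42).

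Per-cell marker gates turned the log2 ratio of Isg15 in nonclassical monocyte-like cells to 0.85, and of Rsad2 and Ifit2 in general capillary endothelial-like cells to 2.38 and 0.56. Keeping called doublets turned Slfn5 in B-cell-like cells to 0.17. In cells without neutrophil transcripts, an alternative added after seeing the data, Isg15 turned to -0.18 in B-cell-like and -0.09 in Car4 capillary endothelial-like cells; this setting was not run for 7 classes with under 50 such cells. Without thinning, the treated minus PBS difference in cells with at least 5 member UMIs was 7.70 percentage points in CD4 T-like and 0.80 in regulatory T-like cells, where thinned cells gave a negative difference. The causes of these changes were not tested.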

Other observations

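Plasmacytoid dendritic cells are known as major producers of type I interferon through TLR7. The pDC-like cells, whose leading genes also included heart muscle genes, numbered 28 with treatment and 73 with PBS, too few for the comparison by class. Their summed member level was 6596 CPM (6092 to 7131) and 7162 CPM (6869 to 7464). Irf7 stood at 625 and 442 CPM in them, and Isg15 at 135 and 76.4 CPM. Bst2 stood at 3293 CPM (2940 to 3677) and 4324 CPM (4097 to 4560) in them. Mature DC-like cells (19 and 41) had 2442 CPM (2207 to 2695) and 2909 CPM (2713 to 3115) in sum, and innate lymphoid-like cells (26 and 39) 2790 CPM (2445 to 3170) and 1456 CPM (1235 to 1706).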
